A study of Rattus norvegicus with 6 samples.

Results

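Collagen chains are the protein subunits of collagens, and 42 protein-coding rows of the gene count table carry a collagen chain symbol, out of 33565 rows in all. They were found by the pattern of the symbol (Col, a type number, the letter a and a chain number). The row with the highest total count was kept for each symbol. No difference between the groups entered this rule, but it was set with earlier results of these data known. By collagen type they comprise 10 fibrillar chains, 6 basement membrane chains of type IV, 5 chains of type VI, 9 FACIT chains and 12 others. FACIT stands for fibril-associated collagens with interrupted triple helices. The cells were primary cardiomyocytes isolated from the hearts of Sprague-Dawley rats at postnatal day 7 and grown in medium with 10% fetal bovine serum. The 3 control samples received vehicle and the 3 progesterone samples 100 nM progesterone, a steroid hormone, both for 24 h. RNA enriched for mRNA was sequenced, and the study's title concerns progesterone, YAP (yes-associated protein, a transcription co-activator), the proliferation of heart muscle cells and repair of the heart. The labels speak of biological replicates without naming separate animals or cultures, and the p-values therefore rest on sample-to-sample spread that may be technical only.

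Each collagen molecule is a triple helix of chains, of the same or of different genes, with glycine repeated at regular steps along each chain. Fibrillar collagens form the cross-striated fibres that carry tension, FACIT collagens sit on the surface of those fibres, type IV forms the mesh of basement membranes, and type VI forms beaded filaments around cells. In the heart, fibroblasts make most of the interstitial types I and III, while muscle, vessel and endothelial cells contribute type IV. Within the cell the chains are hydroxylated, folded and exported, and outside it they are trimmed, assembled and cross-linked by enzymes described after the chains.

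The libraries held 21156793 to 25376220 counts. Cardiomyocyte markers were present in every library, with a summed level of 13452 to 13575 CPM in the controls and 12755 to 14011 CPM with progesterone over 9 genes (CPM, the count as a part of the library total, scaled for composition), of which 3 were higher and 4 lower. Markers of other heart cells were present too, and their counts of calls stand against 63.0% of all genes called, 31.2% higher and 31.8% lower. Fibroblast markers other than collagens, 11 in number, summed to 6519 to 7868 and 7569.6 to 8756 CPM, with 5 higher and 4 lower. Smooth muscle and pericyte markers, 11 in number, summed to 2503 to 2834 and 5475 to 6031 CPM, with 9 higher and 2 lower. Of 6 tested endothelial markers, 1 was higher and 2 were lower, and of 6 epicardial and mesothelial markers 3 were higher and 2 lower. Leukocyte markers had 3 of 4 higher and Schwann cell markers 1 of 3. The leukocyte sum was 28.04 to 37.6 and 53.9 to 62.3 CPM, and the endothelial Cldn5 and the lymphocyte genes Cd3e and Cd79b had no count in any library. In such bulk samples a change in the number of cells of a type cannot be told apart from a change in RNA per cell, and the part of cell composition in the collagen results was not tested.

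Most collagen chains that could be tested were higher with progesterone, and few were lower. Of the 42 chains, 35 had enough counts for edgeR's quasi-likelihood test, and 25 of these passed an adjusted p of 0.05, 22 higher and 3 lower. Among all 15075 genes tested, 63.0% passed in either direction, 31.2% as higher and 31.8% as lower. The share of chains that changed at all, 71.4%, thus lay near that background, while 62.9% of the chains were higher and 8.57% lower. At least 2-fold increases were found for 11 chains, against 7.14% of all genes, and a decrease of that size for 1 chain, against 9.31%. The median log2 fold change was 0.64 over the 35 tested chains and 0.00 over all genes tested. The CPM values of the groups did not overlap in 28 of the 35 chains, 24 of them higher and 4 lower, where the shares among all genes were 68.6%, 33.8% and 34.8%. With upper quartile scaling, 60.1% of the changed genes were higher against 49.6% here, and 23 chains were higher and 3 lower. A gene that passed the count filter only through the group where it is high had to differ, so these counts describe the tested chains and not all 42. Col19a1 was such a chain, and Col20a1, which was not called, reached the filter's level in 2 control libraries. Among the 33 chains that reached it in all libraries of both groups, 21 were higher and 3 lower, and 10 rose at least 2-fold.

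**Figure D1:**
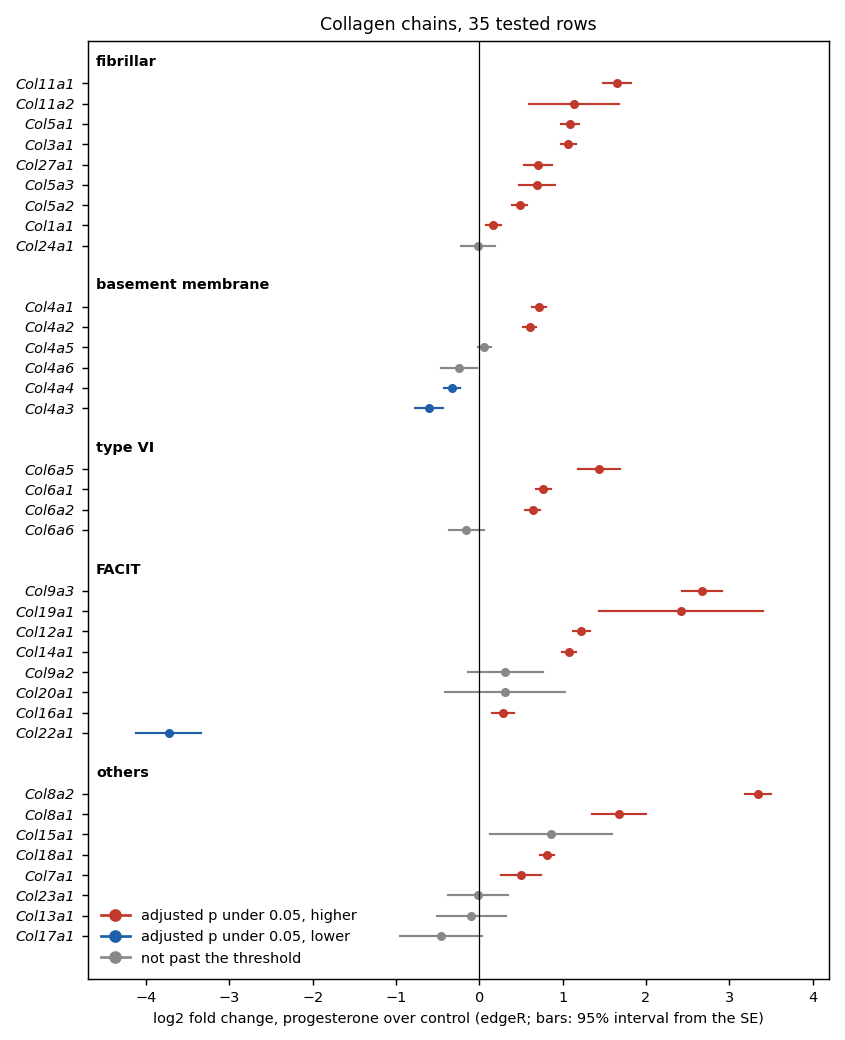
Log2 fold change of progesterone over control (x axis) for each of the 35 tested collagen chains (y axis), grouped by collagen type, with the 95% interval from the standard error as bars and colour for the call. Fibrillar chains lie to the right of 0 except Col24a1 at -0.01, type IV chains fall on both sides, Col8a2 is farthest to the right at 3.35 and Col22a1 farthest to the left at -3.73.

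Together the 42 rows took 3.46%, 3.38% and 3.35% of the counts in the control libraries and 5.18%, 5.12% and 4.91% in the progesterone libraries. Every progesterone library had a larger collagen share than every control library. The difference of 1.67 percentage points had an exact two-sided permutation p of 0.1, the smallest that 3 libraries against 3 can give. As a share of summed FPKM the difference was 0.627 percentage points. Without Col1a1, the most abundant chain, the share of counts was 1.93%, 1.87% and 1.90% in the controls and 3.46%, 3.43% and 3.33% with progesterone, a difference of 1.51 percentage points. Rows given as Col1a2 and Col6a3 lie outside the 42 and are described below. With both added to the 42, the share of counts was 3.64% ± 0.131 in the controls and 5.63% ± 0.202 with progesterone (SD, n = 3), a difference of 1.99 percentage points. The parts of the collagen counts given next are of the 42 rows alone. Of these counts, Col1a1 made up 44.4%, 44.5% and 43.4% in the controls and 33.2%, 33.04% and 32.2% with progesterone. Col3a1 made up 19.7%, 18.8% and 19.6% and 26.5%, 27.4% and 26.9%. Fibrillar chains as a class still took 70.01% ± 0.76 and 67.4% ± 0.635 (SD, n = 3) of the collagen counts. The FACIT share of collagen counts was 2.70% ± 0.0969 and 3.48% ± 0.153.

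**Figure D2:**
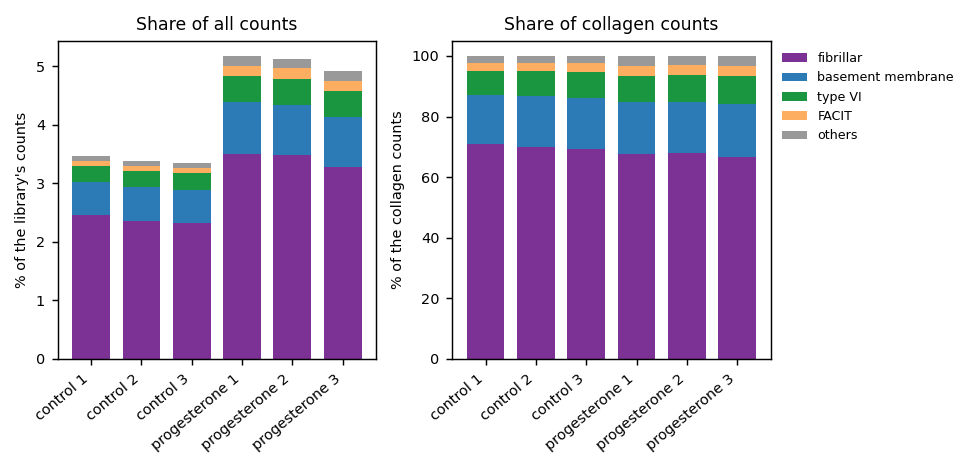
Share of all counts (left y axis, %) and share of the collagen counts (right y axis, %) taken by each collagen class in each of the 6 libraries (x axis), as stacked bars. The whole left bar runs from 3.35% to 3.46% in the controls and from 4.91% to 5.18% with progesterone, while the fibrillar part on the right is between 66.7% and 70.8% in every library.

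Fibrillar collagens build the tensile fibres, and 8 of the 9 tested fibrillar chains rose, with none lower. Among all genes tested, 31.2% were higher and 31.8% lower. Col1a1 encodes the alpha 1 chain of type I, the bulk of cardiac scar and interstitial fibre. It was read at 15362, 14868 and 14492 CPM in the controls and 17201, 17208 and 15772 CPM with progesterone. The progesterone values were above all control values, by a small margin, and the log2 fold change was 0.17 ± 0.05 (SE, adjusted p = 0.0061), or 1.12-fold. Col3a1 encodes the chain of type III, which forms thinner fibres together with type I. Its level was 6823, 6288 and 6559 CPM in the controls and 13757, 14267 and 13182 CPM with progesterone, a rise of 2.09-fold (1.07 ± 0.05 on the log2 scale, SE). Per gene length, in FPKM (fragments per kilobase of gene and per library depth), Col1a1 was at 2549.6 ± 79.2 and Col3a1 at 1371 ± 58.7 in the controls, and at 2858 ± 143 and 2869 ± 113 with progesterone (SD, n = 3). Col3a1 thus stood at about the level of Col1a1 per length with progesterone, where the difference was within their spread, and below it in every control library. The FPKM ratio of Col3a1 to Col1a1 was 0.543, 0.517 and 0.553 in the controls and 0.978, 1.01 and 1.02 with progesterone (exact permutation p = 0.1, the smallest possible; adjusted over 9 ratios 0.11).

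The alpha 2 chain of type I has no row under its own symbol. The description of a row named NEWGENE_621351 (chromosome 4, 31534225 to 31569151, on the table's unnamed build) gives it as this chain, which lies outside the 42. It was read at 2734, 1775 and 1375 CPM in the controls and 2454, 1915 and 1673 CPM with progesterone. The libraries of either group spread widely and overlapped, and the log2 fold change was 0.04 with a 95% interval of -0.60 to 0.68 (adjusted p = 0.93). A second row on the same chromosome carries the same description at 1.42 to 2.21 CPM, so reads may have been divided between near-identical copies. The FPKM ratio of Col1a1 to this row was 4.32, 6.43 and 8.10 in the controls and 5.38, 6.90 and 7.24 with progesterone (exact permutation p = 0.8).

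Type V chains join type I and III fibres and limit their diameter. Col5a1 was read at 1136, 1124 and 1036 CPM in the controls and 2504, 2258 and 2239 CPM with progesterone, and it rose 2.12-fold. Its partner Col5a2 was read at 1069, 1014 and 963 CPM in the controls and 1432, 1468 and 1359 CPM with progesterone, and it rose 1.40-fold. Both groups were well apart in each gene, but the chains did not rise equally. The FPKM ratio of Col5a2 to Col5a1 was 1.37, 1.31 and 1.35 in the controls and 0.83, 0.944 and 0.881 with progesterone, so that the more abundant chain per length changed from Col5a2 to Col5a1 in every library. Col5a3, the rarer partner, was at 63.8, 58.7 and 53.98 CPM in the controls and 95.4, 107 and 82.7 CPM with progesterone, with a log2 fold change of 0.69 ± 0.11 (SE, adjusted p = 0.0015).

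Type XI chains, close relatives of type V that are abundant in cartilage, were low and higher with progesterone. Col11a1 was read at 18.2, 15.8 and 14.2 CPM in the controls and 54.5, 49.05 and 48.2 CPM with progesterone. Its lowest progesterone value was above its highest control value, and it rose 3.14-fold (1.65 ± 0.08, log2, SE). Col11a2 rose too, at 0.984 to 1.23 CPM in the controls and 1.74 to 3.46 CPM with progesterone, with a log2 fold change of 1.13 ± 0.27 (SE, adjusted p = 0.002). Col27a1, a fibrillar chain of developing cartilage, was at 12.05, 14.7 and 12.8 CPM in the controls and 20.9, 22.4 and 21.3 CPM with progesterone, and it rose 1.63-fold. Col24a1 did not pass, at 16.9, 16.6 and 15.1 CPM in the controls and 18.9, 15.4 and 13.9 CPM with progesterone, with groups that overlapped and a log2 fold change of -0.01 (95% interval -0.22 to 0.19). Col2a1, the main chain of cartilage fibres, was too low to be tested, with 14 counts over the control and 7 over the progesterone libraries. Of the cartilage genes listed beside these chains, Acan, the core protein of aggrecan, went from 3.40 ± 0.258 to 104 ± 5.36 CPM and Sox9 from 18.9 ± 0.62 to 29.3 ± 0.782 CPM (SD, n = 3), both higher, while Comp did not pass (from 1.28 ± 0.22 to 1.50 ± 0.476 CPM) and Matn1 was almost unread. Whether these genes move with the same cells as the type XI chains was not tested.

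**Figure D3:**
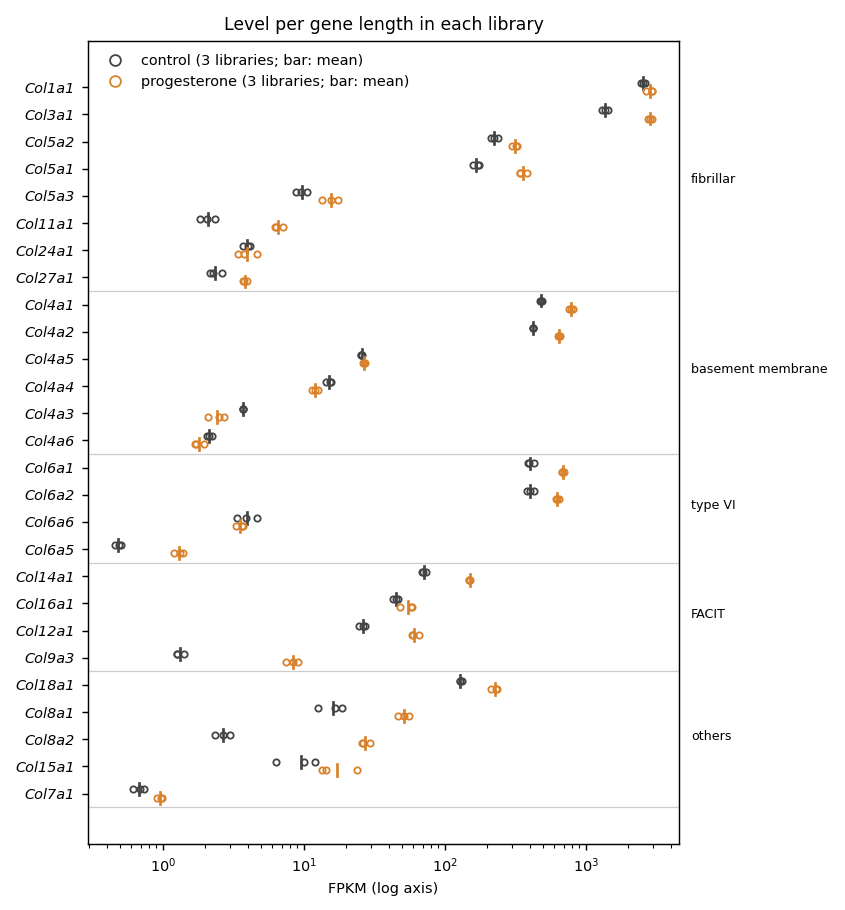
FPKM on a log axis (x axis) of the 27 tested chains with a mean of at least 5 CPM (y axis), with an open circle per library, a bar at the mean of 3 libraries, and grey for control and orange for progesterone. Control means run from 0.484 FPKM for Col6a5 to 2549.6 for Col1a1, and the circles of the groups are separate for most chains.

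Chains of the basement membrane collagen, type IV, were called in both directions. Of its 6 chains, 2 were higher, 2 lower and 2 did not pass, which is close to the 31.2% higher and 31.8% lower among all genes, so the count itself is no result about this type. Col4a1 and Col4a2, the chains of the basement membrane found around most cells, rose together. Col4a1 was read at 3223, 3168 and 3122 CPM in the controls and 5352, 5199 and 5044 CPM with progesterone, and Col4a2 at 2108, 2113 and 2091 CPM in the controls and 3257, 3209 and 3144 CPM with progesterone. No values overlapped in either gene, and the log2 fold changes were 0.71 ± 0.04 (SE, adjusted p = 6.4e-10) and 0.61 ± 0.04 (SE, adjusted p = 2.4e-09). Col4a3 and Col4a4, chains of specialised membranes such as that of the kidney glomerulus, both fell. Col4a3 was read at 24.7, 25.1 and 24.8 CPM in the controls and 16.9, 14.2 and 18.1 CPM with progesterone, and Col4a4 at 158, 170.0 and 170.5 CPM in the controls and 132, 126 and 139 CPM with progesterone. Their log2 fold changes were -0.60 ± 0.09 (SE, adjusted p = 1.7e-05) and -0.33 ± 0.05 (SE, adjusted p = 2.3e-05). Col4a5 and Col4a6, on the X chromosome, did not pass. Col4a5 was at 167, 168 and 168 CPM in the controls and 174, 177 and 173 CPM with progesterone, with a 95% interval of -0.02 to 0.14 for the log2 fold change. Col4a6 was at 10.5, 11.03 and 10.2 CPM in the controls and 8.43, 8.52 and 9.78 CPM with progesterone (adjusted p = 0.06). The groups did not overlap in either gene, with Col4a5 slightly above the controls and Col4a6 below them.

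The 6 type IV genes lie as 3 head-to-head pairs that are transcribed away from each other, and the chains that rose and those that fell each form a pair. In the RefSeq annotation of GRCr8 the start sites of Col4a2 and Col4a1 on chromosome 16 are separated by 76 bases, those of Col4a4 and Col4a3 on chromosome 9 by 412 and those of Col4a6 and Col4a5 on the X chromosome by 1414. The stretch that each close pair shares is shown because its members changed in the same direction, upwards in the first pair and downwards in the second. Below, the first is all 76 bases between the starts (chr16:84885521-84885596) and the second the 88 bases that lie within 250 bases of both starts (chr9:91323740-91323827), both 5′ to 3′ on the plus strand, the strand of Col4a1 and Col4a3. Capitals mark matches to 4 promoter motifs, searched on both strands. These are the GC box, with the letters GGGCGG, the CCAAT box, the TATA box with the letters TATAA, and the TEAD element with the letters GGAATG. The first stretch holds 1 GC box, on the minus strand, and the second no match. The second is only a part of the 412 bases between its starts, and the 250 bases before Col4a3 hold a GC box outside it. The 250 bases before Col4a1 and those before Col4a2 hold a CCAAT box outside the first stretch.

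Col4a2 and Col4a1: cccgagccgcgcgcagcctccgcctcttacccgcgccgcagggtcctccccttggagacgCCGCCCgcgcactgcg
Col4a4 and Col4a3: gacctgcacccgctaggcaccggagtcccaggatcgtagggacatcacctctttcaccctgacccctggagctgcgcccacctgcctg

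The balance of partners within each pair was compared next. Per length the ratio of Col4a2 to Col4a1 was 0.872, 0.888 and 0.892 in the controls and 0.811, 0.822 and 0.831 with progesterone. That of Col4a4 to Col4a3 was 3.91, 4.13 and 4.19 and 4.79, 5.41 and 4.68. No values overlapped between the groups, although they lay close to each other, and each had an exact permutation p of 0.1 (adjusted 0.11), the smallest possible. Col4a6 was far below Col4a5 per length, with ratios of 0.0827, 0.0868 and 0.08 in the controls and 0.064, 0.0636 and 0.0746 with progesterone.

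**Figure D4:**
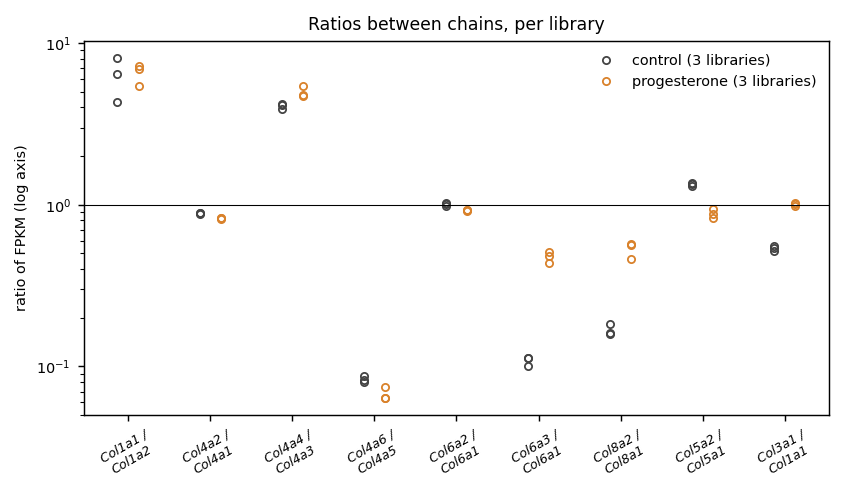
Ratio of FPKM (y axis, log axis) between 9 pairs of chains (x axis) in each library, with an open circle per library, grey for control and orange for progesterone. The largest shifts between the groups are those of Col6a3 to Col6a1 and Col8a2 to Col8a1, the Col5a2 to Col5a1 ratio crosses 1, and the Col1a1 to Col1a2 ratio overlaps.

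Type VI collagen forms beaded filaments near the cell surface, from an alpha 1, an alpha 2 and a further chain. Of the 4 tested members 3 rose and none fell, where 31.2% of all genes were higher and 31.8% lower. Col6a1 was read at 1221, 1202 and 1324 CPM in the controls and 2104, 2169 and 2110.0 CPM with progesterone, and Col6a2, its neighbour on chromosome 20, at 1499, 1422 and 1599 CPM in the controls and 2331, 2395 and 2306 CPM with progesterone. Every progesterone value was above every control value, and the rises were 1.70-fold and 1.56-fold, with log2 fold changes of 0.77 ± 0.05 (SE, adjusted p = 7.3e-10) and 0.64 ± 0.05 (SE, adjusted p = 1.1e-08). Per length the chains were nearly equal, with ratios of Col6a2 to Col6a1 of 1.02, 0.987 and 1.01 in the controls and 0.924, 0.921 and 0.912 with progesterone. The usual partner, Col6a3, has no row under its symbol, and a row labelled as a processed transcript is given as Col6a3 by its NCBI gene number. It lies outside the 42. Its FPKM ratio to Col6a1 was 0.113, 0.113 and 0.1 in the controls and 0.512, 0.479 and 0.434 with progesterone. It was thus the scarcest of the 3 per length in every library, and it rose 7.46-fold, more than its partners (exact permutation p of the ratio 0.1, adjusted 0.11).

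The alternative partners of this pair lie in a row on chromosome 8. Col6a5 was low at 3.62, 3.91 and 4.03 CPM in the controls and 11.03, 10.6 and 9.61 CPM with progesterone, did not overlap between the groups and rose 2.70-fold. Col6a6 was at 22.9, 26.8 and 31.9 CPM in the controls and 24.96, 22.8 and 25.2 CPM with progesterone with overlapping groups and did not pass (log2 fold change -0.16, 95% interval -0.37 to 0.05). Col6a4 was almost unread, with 6 and 7 counts over the groups. These neighbours thus did not share a call.

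FACIT collagens link fibres to each other and to their surroundings, and of 8 tested members 5 were called higher and 1 lower. Of the 6 that reached the filter's level in both groups, 4 were higher and 1 lower. The shares among all genes were 31.2% higher and 31.8% lower. Col12a1 and Col14a1 decorate type I fibres in tissues under tension. Col12a1 was read at 279, 292 and 265 CPM in the controls and 634, 697 and 622 CPM with progesterone, and Col14a1 at 378, 376 and 402 CPM in the controls and 803, 825 and 809.7 CPM with progesterone. Every progesterone value was far above every control value, and the folds were 2.34 and 2.11. Col16a1 was at 228, 237 and 245 CPM in the controls and 254, 307 and 302 CPM with progesterone, with groups close to each other and a log2 fold change of 0.28 ± 0.07 (SE, adjusted p = 0.0037). Col9a3, a chain of type IX on cartilage fibres, was read at 2.60, 2.92 and 2.58 CPM in the controls and 17.3, 15.5 and 18.8 CPM with progesterone. It rose 6.36-fold while its partner chain Col9a2 stayed between 1.26 and 1.99 CPM and did not pass (95% interval -0.14 to 0.76), and Col9a1 had 3 and 1 counts over the groups. Col19a1 had 3, 6 and 3 counts in the controls and 31, 13 and 16 with progesterone. It passed the count filter through the progesterone libraries alone, so these counts are a description and its call supports nothing further. Col20a1 was near 1 CPM and did not pass.

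Col22a1 showed the largest fall of the tested chains. Its product sits at tissue junctions such as that of muscle and tendon. It was read at 7.01, 7.34 and 7.09 CPM in the controls and 0.474, 0.659 and 0.476 CPM with progesterone. The control values lay close together and more than 10 times above the progesterone values, and the log2 fold change was -3.73 ± 0.20 (SE, adjusted p = 2.3e-10), or 13.2-fold lower. The progesterone libraries held only 10, 14 and 11 counts of it, just above the count filter's level of 0.436 CPM. The size of the fall thus rests on few counts in that group.

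Among the others, 4 of 8 tested chains rose and none fell. The share called was 50%, against 63.0% of all genes (31.2% higher, 31.8% lower). Type VIII collagen forms short-chain networks in vessel walls and under endothelium. Col8a2 was read at 12.6, 11.3 and 9.85 CPM in the controls and 108, 124 and 112 CPM with progesterone. It rose 10.2-fold, the largest rise among the tested chains, with a log2 fold change of 3.35 ± 0.08 (SE, adjusted p = 3.9e-12). Its partner Col8a1 was at 80.9, 73.2 and 55.4 CPM in the controls and 242, 223 and 204 CPM with progesterone, with a log2 fold change of 1.68 ± 0.17 (SE, adjusted p = 8.7e-04). Both genes were well separated between the groups, and per length Col8a2 stayed below Col8a1 in every library. The ratio of Col8a2 to Col8a1 was 0.161, 0.16 and 0.184 in the controls and 0.462, 0.573 and 0.566 with progesterone (exact permutation p = 0.1, adjusted 0.11). In the same libraries 9 of the 11 listed markers of smooth muscle and pericytes were higher, with Acta2 going from 690.2 ± 113 to 2611 ± 169 CPM and Myh11 from 70.5 ± 12.1 to 238 ± 22.96 CPM. The other two were lower, Kcnj8 going from 28.98 ± 0.907 to 11.8 ± 2.19 CPM and Abcc9 from 173 ± 21.3 to 76.6 ± 12.7 CPM (SD, n = 3). Of the 6 tested endothelial markers, 1 was higher (Vwf), 2 were lower (Tek and Emcn) and the rest did not pass. Markers named here were picked after their values were seen, and their part in the type VIII result was not tested.

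The 250 bases before the start of each type VIII gene are shown because both partner chains rose and Col8a2 rose more than any other tested chain. They were taken from RefSeq for GRCr8, at chr11:56246532-56246781 for Col8a1 and chr5:143870519-143870768 for Col8a2, 5′ to 3′ on the plus strand, which is the strand of both genes. Capitals again mark the 4 motifs. Col8a1 holds 4 GC boxes and Col8a2 holds 5, of which 2 overlap, and neither holds any of the other motifs.

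Col8a1: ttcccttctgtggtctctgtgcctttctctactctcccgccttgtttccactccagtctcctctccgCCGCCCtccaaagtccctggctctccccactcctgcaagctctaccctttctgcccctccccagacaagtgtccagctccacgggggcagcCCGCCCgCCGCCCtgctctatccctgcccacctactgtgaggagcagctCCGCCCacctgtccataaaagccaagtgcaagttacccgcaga
Col8a2: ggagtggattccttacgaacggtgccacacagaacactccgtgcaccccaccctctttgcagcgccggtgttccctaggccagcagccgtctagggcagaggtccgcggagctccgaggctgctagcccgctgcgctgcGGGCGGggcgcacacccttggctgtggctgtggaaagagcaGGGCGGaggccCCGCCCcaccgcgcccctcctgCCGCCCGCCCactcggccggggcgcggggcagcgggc

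RefSeq promoter sequences were found for 33 of the 42 chains, 16 of them among the chains called higher. The 9 without one were Col1a1, Col3a1, Col6a2, Col9a3, Col12a1 and Col14a1, called higher, Col22a1, called lower, and Col2a1 and Col25a1, not tested. In the 250 bases before the start, GGGCGG was present in 12 of those 16, in 19 of all 33 and in 32.4% of 27457 promoters in the table. CCAAT was present in 5 of the 16 and in 34.3% of all promoters. TATAA was present in none of the 16, in 6 of the 33 and in 24.1% of all. GGAATG, the element bound by the TEAD partners of YAP, was present in 1 of the 16, Col11a2, in 5 of the 33 and in 11.8% of all. Paired genes share part of their windows and are not independent, and a match is a run of letters and not a binding site. All promoters here include those of genes not expressed in these cells, and differences between the shares were not tested.

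Col18a1 and Col15a1 encode multiplexins, basement membrane proteoglycans whose ends can be cut off as endostatin-like fragments. Col18a1 was read at 641, 644 and 663 CPM in the controls and 1172, 1077 and 1166 CPM with progesterone, without overlap, and it rose 1.75-fold. Col15a1 was at 32.96, 52.6 and 63.3 CPM in the controls and 124, 70.1 and 74.7 CPM with progesterone. All its progesterone values were above the controls, but the libraries of each group spread widely and it did not pass (log2 fold change 0.85, adjusted p = 0.12). A further row, LOC108348074, is described as Col15a1-like and was read at 43.5, 23.96 and 66.98 CPM in the controls and 101, 77.5 and 113 CPM with progesterone, so reads may have been divided between the copies. Col7a1, the chain of anchoring fibrils, was at 6.38, 6.78 and 5.65 CPM in the controls and 9.14, 8.43 and 8.96 CPM with progesterone, and it rose 1.41-fold.

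The membrane-spanning collagens were low. Col13a1, Col17a1 and Col23a1 stayed between 1.37 and 4.34 CPM in all libraries, overlapped between the groups and did not pass. Their log2 fold changes were -0.10 (95% interval -0.51 to 0.32), -0.46 (-0.95 to 0.03) and -0.01 (-0.37 to 0.35). A further row, LOC103693323, is described as the same chain as Col23a1. It was read at 0.988 to 1.95 CPM and did not pass, and reads may have been divided between the rows. Col25a1, the fourth of this kind, had 2 and 11 counts over the groups and was not tested. Also too low to be tested were Col10a1, a chain of hypertrophic cartilage, with 26 and 35 counts, Col28a1 with 32 and 21, and Col26a1 with 10 in each group. Col10a1 lies within the opposite-strand gene Nt5dc1, and the labels do not say whether counting used the strand.

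The genes that process collagen moved in both directions, and more of them fell than rose. Of 38 listed genes of procollagen folding, modification, export, trimming and cross-linking, all were tested, 11 rose and 19 fell. Their median log2 fold change was -0.16. Against backgrounds of 31.2% and 31.8%, the share of higher genes was near that of all genes, while the share of lower genes, 19 of 38, was above it. Prolyl 4-hydroxylase, which makes the hydroxyproline that stabilises the helix, fell in all 4 of its listed subunit genes. Among them P4hb went from 1954 ± 80.3 to 1219 ± 34.4 CPM, P4ha2 from 161 ± 2.72 to 98.1 ± 6.22 CPM and P4ha3 from 81.1 ± 6.57 to 40.1 ± 3.64 CPM (SD, n = 3). P4ha1 went from 301 ± 17.1 to 179 ± 18.5 CPM. In the prolyl 3-hydroxylase family P3h2 and P3h3 fell (log2 fold changes -0.51 and -0.19), P3h4 rose (0.15) and P3h1 did not pass (-0.01). Pcolce, which speeds the removal of the C-propeptide, fell 1.78-fold, from 940.0 ± 52.9 to 529 ± 29.5 CPM.

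Of the cross-linking lysyl oxidases, 4 of 5 fell. Loxl3 showed the strongest change in the list, at 155, 159.5 and 149 CPM in the controls and 21.9, 23.7 and 22.7 CPM with progesterone, 6.78-fold lower, with a log2 fold change of -2.76 ± 0.05 (SE, adjusted p = 2.0e-16). Loxl2 was at 223, 223 and 207 CPM in the controls and 123, 129 and 109.6 CPM with progesterone and fell 1.81-fold. Groups did not overlap in either gene. Lox and Loxl4 fell as well, with log2 fold changes of -0.43 and -1.11, whereas Loxl1, which acts mainly on elastic fibres, rose by 0.54 on the log2 scale. Among those that rose were also the propeptidase genes Adamts2 (0.36) and Adamts3 (0.97), and Serpinh1, the collagen chaperone HSP47 (0.15, with groups that overlapped). The largest rises in the list were those of Tll1 (1.26) and Colgalt2 (1.03). Plod1 and Plod3 fell (-0.86 and -0.31), while Plod2 rose (0.17).

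**Figure D5:**
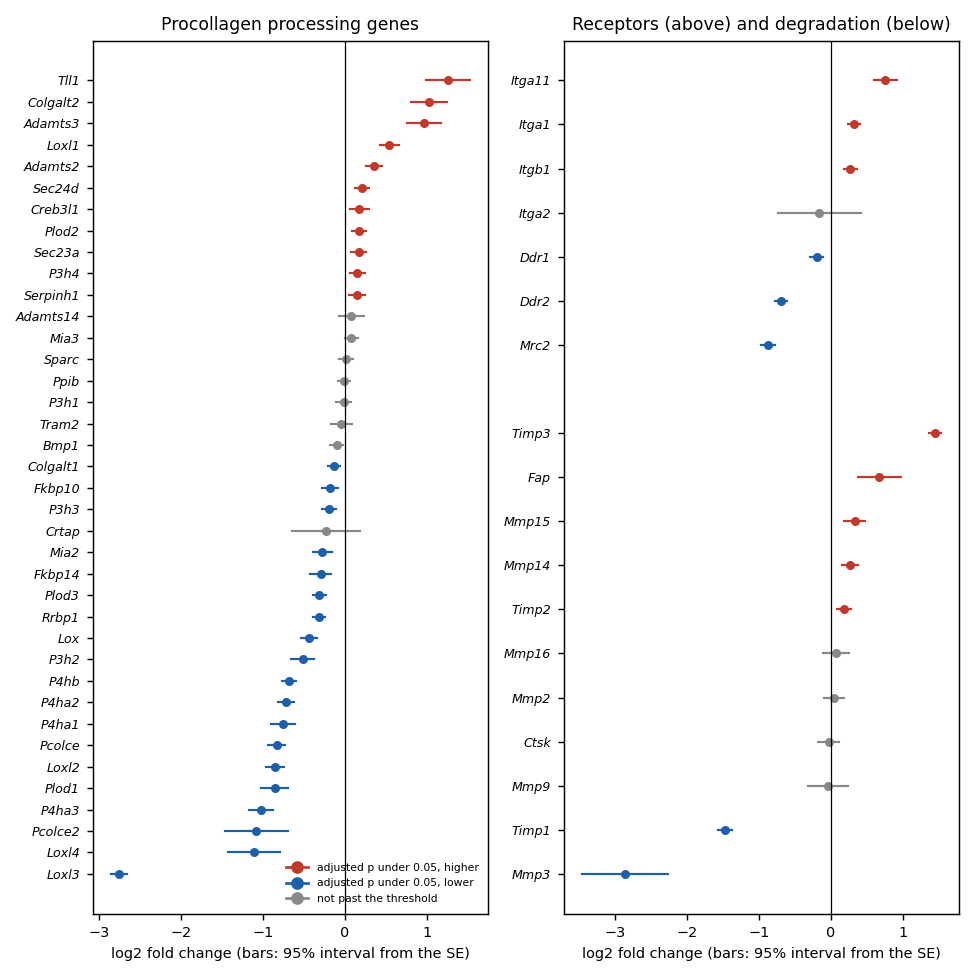
Log2 fold change of progesterone over control (x axes) for 38 procollagen processing genes (left), and on the right 7 collagen receptor genes (upper group) and 11 degradation genes (lower group), with the 95% interval from the standard error as bars and colour for the call. More processing genes lie left of 0 than right of it, with Loxl3 farthest to the left, and receptors and degradation genes fall on both sides.

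Collagen receptor genes and the degradation list, which holds enzymes and their inhibitors, had calls in both directions. Of all genes, 63.0% were called, 31.2% higher and 31.8% lower. In the degradation list only the share called in either direction lay near that background, while more genes were higher than lower. Of 7 tested receptors 3 rose and 3 fell. Mrc2, which takes up collagen for breakdown, fell from 604 ± 23.9 to 330.2 ± 18.3 CPM and Ddr2, a receptor kinase for fibrillar collagen, from 243 ± 3.91 to 150.2 ± 5.62 CPM. The integrin chains Itga11 and Itga1 rose from 29.1 ± 3.49 to 49.1 ± 3.10 CPM and from 138 ± 3.89 to 172 ± 5.26 CPM. Of 11 tested degradation genes 5 were called higher and 2 lower. The higher ones were Mmp14, Mmp15, Fap and the inhibitors Timp2 and Timp3, and the lower ones Mmp3 and the inhibitor Timp1. The inhibitors Timp3 and Timp1 moved in opposite directions, from 57.3 ± 1.99 to 156 ± 4.46 CPM and from 286 ± 8.79 to 103 ± 6.46 CPM. The membrane collagenase gene Mmp14 rose from 1371 ± 122 to 1643 ± 49.7 CPM, and Mmp3 was at 53, 52 and 55 counts in the controls and 5, 5 and 10 with progesterone. Mmp3 passed the count filter through the controls alone, so these counts are a description and its call, 1 of the 2 lower, supports nothing further. Itga10, Gp6, Lair1, Mmp1, Mmp8, Mmp13 and Timp4 were too low to be tested.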

How the data were processed

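Gene expression was measured by RNA-seq in 6 libraries of cultured rat cardiomyocytes, 3 control and 3 progesterone, grouped by their titles. Bowtie 0.12.2 and mm8 are named in the submitters' processing notes, the latter a mouse build, while the identifiers are rat Ensembl genes. The sources used here give no rat build, annotation or counter. The authors deposited unnormalised whole-number counts together with FPKM, whose divisor was within 1.57% of each count total.

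The members and gene lists were chosen with earlier results of these data known. The quasi-likelihood test of edgeR 4.0.16 (R 4.3.3; robust glmQLFit, glmQLFTest) was run on the counts after TMM scaling. Genes were kept by filterByExpr (count 10, total 15), and p-values were adjusted by Benjamini-Hochberg over all 15075 genes, with 0.05 as the threshold. TMM factors ran from 0.984 to 1.01. CPM values are TMM-scaled, and SEs were derived from the F statistic. Every tested chain is named, with the value of each library from a mean of 5 CPM upwards, and up to 6 processing, 4 receptor and 4 degradation genes with the smallest adjusted p, beside others picked for their role after their values were seen. Ratios between chains used FPKM, and 3 of the 9 (Col4a4 to Col4a3, Col4a6 to Col4a5, Col3a1 to Col1a1) were added after seeing the data. In counts simulated for this comparison with 14910 genes, the test recovered 50% of 50 genes changed 1.25-fold and 94% of 50 changed 2-fold. There were 10 false calls among 173. The changed genes were drawn from the better counted ones and were far fewer than the 63.0% of genes called in the data. Recovery and false calls in the simulation thus need not hold in the data or for chains of low count. Other settings tried were scaling by RLE, by upper quartile or by library size, no filter, 1 CPM in 3 libraries, each library left out, a replicate block, DESeq2 1.42.0, and limma 3.58.1 on log2(FPKM + 1) and log2(FPKM + 0.1).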

Additional observations from a re-analysis of the deposited data

How the results depend on the processing

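All 25 chains called kept their direction and their call under each of the 15 alternatives run, except that Col19a1 was not tested under the filter of 1 CPM in 3 libraries, which left 21 chains higher. Upper quartile scaling moved the median of all genes by 0.10 on the log2 scale, put 60.1% of changed genes on the higher side (49.6% otherwise), and called 23 chains higher, Col4a5 among them (0.15). Col6a6 passed as lower without control replicate 1 (-0.27) and Col4a6 without progesterone replicate 3 (-0.32). Signs changed only in rows that passed neither way. With upper quartile scaling the log2 fold changes of Col24a1, Col23a1 and Col13a1 were 0.0835, 0.0842 and 0.000299. As each library was left out, Col24a1 ran from -0.14 to 0.0826 and the Col1a2 row from -0.17 to 0.35. Likewise Col20a1 ran from -0.0681 to 0.57, Col23a1 from -0.0933 to 0.13 and Col13a1 from -0.23 to 0.10. The log2 ratio of Col1a1 to Col1a2 differed by 0.09 between the groups and by -0.16 to 0.29 as each library was left out. The gain in the collagen share was 1.67 percentage points of counts, 1.62 to 1.75 with a library left out, 1.85 without mitochondrial genes in the total and 0.627 as a share of summed FPKM, where the cause was not tested. Processing genes were 8 to 13 higher and 16 to 21 lower over all alternatives.

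Whether replicate numbers pair samples was not settled. Same-numbered samples had residual correlations of 0.087, 0.027 and 0.022, and differently numbered ones -0.083 to 0.055. Control 3 and progesterone 2 correlated best with each other, and the other samples with their own number. With 3 libraries per group, such small values can neither show nor exclude a pairing. With the replicate block 22 chains were higher and 3 lower, and 9508 genes changed in place of 9497. Chains under about 1 CPM, such as Col19a1 and Col20a1, are limited by depth.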

Other observations

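The distances between the paired type IV genes differed between the table and RefSeq. In the table's coordinates, on an unnamed rat build, the rows of Col4a2 (chromosome 16, 83387364 to 83438561) and Col4a1 (83522162 to 83632153) are 83600 bases apart with no other row between them, and the RefSeq starts in GRCr8 are separated by 76. For Col4a6 and Col4a5 the values are 295822, with 1 row between them, and 1414 bases, and for Col4a4 and Col4a3 they are 373 and 412. Whether assembly or annotation differs was not tested.

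The Col15a1 row and its Col15a1-like copy gave summed levels of 76.4, 76.6 and 130.3 CPM in the controls and 225, 148 and 188 CPM with progesterone. The groups did not overlap in the sum, as in either row alone. Neither row passed the test, and the sum was not tested.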
